A study of Rattus norvegicus with 9 samples.

Results

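The S100 proteins are a family of small calcium-binding proteins, and 9 of their genes were followed in the rat uterus: S100g, S100a1, S100a4, S100a6, S100a8, S100a9, S100a10, S100a11 and S100b. They were taken by gene symbol from the platform annotation, each had 1 probe set, and all 9 passed the filter on low intensities, out of 10973 genes that did so. The filter asked a probe set to reach the array's 40th percentile on 3 or more of the 9 arrays, so S100b, which reached it on exactly 3 arrays, and S100a8, which reached it on 4, entered the test through the arrays on which they were bright. The array carried probe sets for 8 other genes of the family name, of which 5 were tested.

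Uterine RNA of female rats was hybridised to Affymetrix expression arrays, 1 array per sample. Treatment rats (arrays 31, 32 and 33) were given electroacupuncture at the Guanyuan and Sanyinjiao points in sessions of 15 min on 7 days and then, with the acupuncture continued, an ovulation induction. Model rats (arrays 21, 22 and 23) had the induction alone, which was an injection of 0.5 U of PMSG (pregnant mare serum gonadotropin), a hormone under which follicles grow, followed after 48 h by human chorionic gonadotropin, which makes them ovulate. Control rats (arrays 41, 42 and 43) were left untreated. The labels describe 18 rats in groups of 6 but do not tie each array to its own animal, so p-values measure the spread between these 3 arrays per group, which may be technical. Strain, age and the oestrous stage of the controls are not stated in the sources used here, and an untreated cycling uterus can differ from day to day of the cycle.

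S100 proteins carry EF-hand calcium-binding loops, and most of them work as dimers that open on binding calcium and then grip a partner protein inside the cell. Some act as calcium buffers, some as adaptors of annexins and the cytoskeleton, and some are released by leukocytes and act as danger signals outside the cell. In the rat uterus the best known member is S100g, also called calbindin-D9k, whose expression in this organ is under oestrogen control.

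Values are the authors' deposited intensities on a linear scale, and differences are given as log2 fold changes of intensity + 16, a scale on which changes of dim genes come out too small. Markers of the labelled tissue were present: all 13 smooth muscle markers, all 12 stromal markers and 17 of 18 epithelial markers were measured above the filter. The oestrogen receptor probe set of Esr1 was under it on every array (4.92 to 6.1), and that of the progesterone receptor Pgr was above it (43.8 to 108). Control 43 stood apart from the other controls. Across probe sets its log2 values correlated at r = 0.9029 with control 41 and 0.9284 with control 42, against 0.981 between controls 41 and 42, and its closest array was model 21 at 0.9739. The members' differences from control are therefore given with all 9 arrays and without control 43, where only 2 controls remain.

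With all 9 arrays none of the 9 genes passed in any comparison (limma, Benjamini-Hochberg adjusted p under 0.05 over all 10973 genes). The share of all genes that passed was 0.51% in treatment against control, 0.0273% in model against control and 0% in treatment against model. At an unadjusted p under 0.05 there was 1 member in treatment against control (S100b; 17.4% of all genes), 2 in model against control (S100a1 and S100b; 12.4%) and 1 in treatment against model (S100g; 14.7%). S100b reached the filter on treatment and model arrays alone, which favours a call as higher than control. Without control 43, 4 members passed in model against control, 1 higher (S100a1) and 3 lower (S100a6, S100a10 and S100a11), where 5.7% of all genes passed as higher and 6.92% as lower. The 4 stand beside 12.6% of all genes. In treatment against control 1 member passed, as lower (S100a6), where 6.56% of all genes passed, 1.49% as higher and 5.08% as lower, and in treatment against model none did, as for all genes (0%), with 3 at an unadjusted p under 0.05 (S100g, S100a10 and S100a11; 21.5% of all genes).

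**Figure D1:**
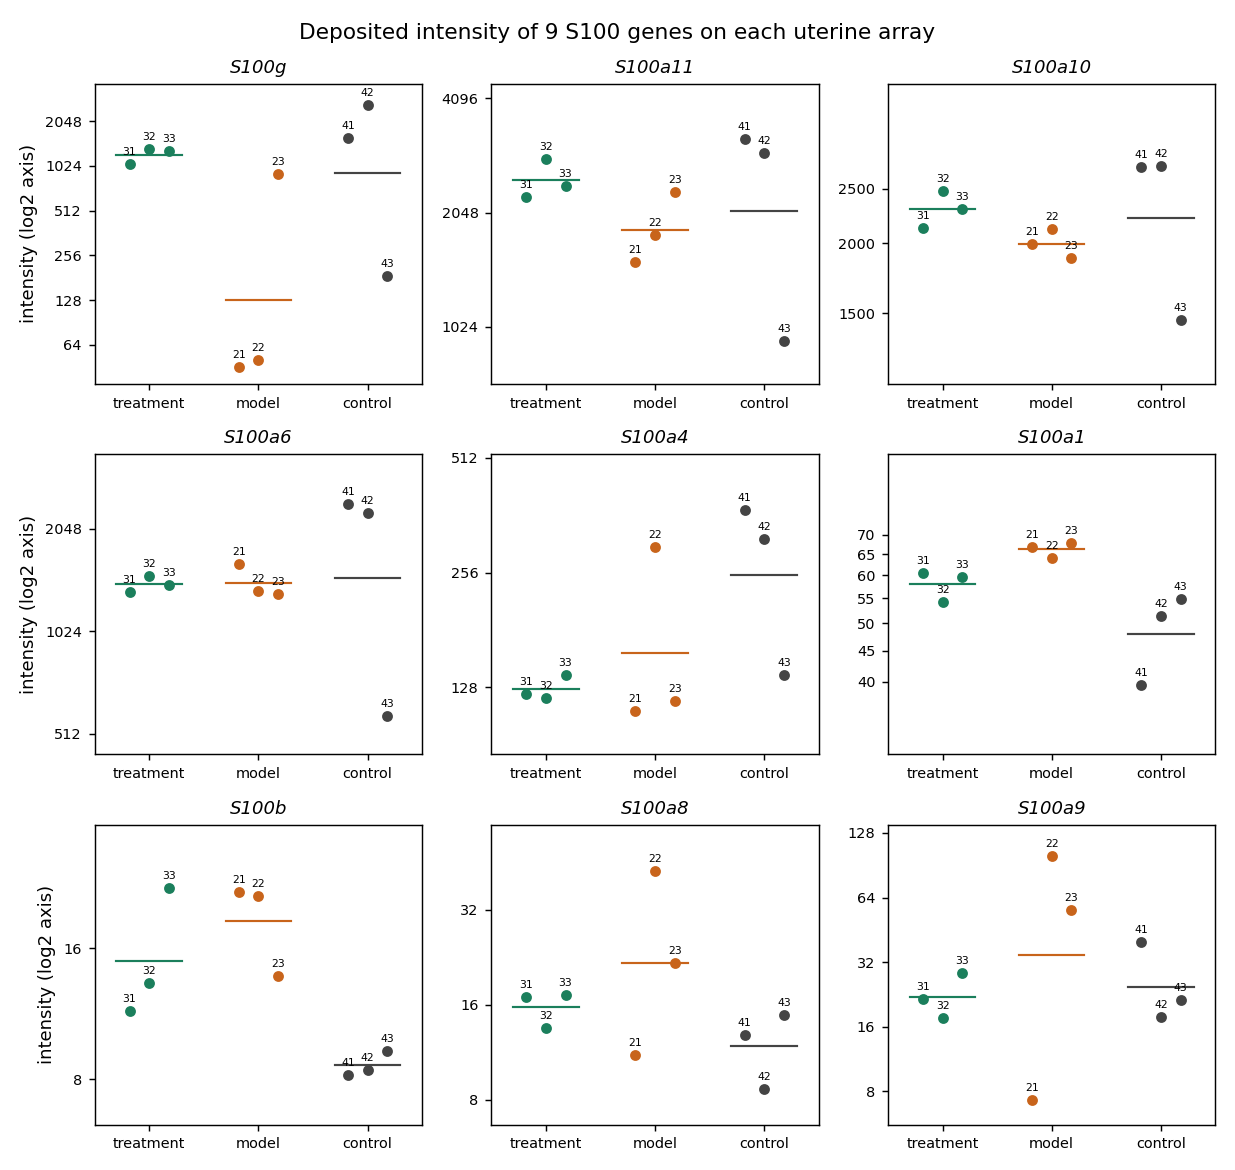
Intensity of each S100 gene on each array (log2 axis, own scale per panel), with points numbered by array and a line at the mean of the log2 intensities of the 3 arrays of a group, in the order treatment, model and control. S100g is low on model arrays 21 and 22 and on control 43, and control 43 is the lowest array for S100a6, S100a10 and S100a11.

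S100g, the calcium buffer of absorptive epithelium and of the uterus, varied more than any other member, with 57.5 times the intensity on its brightest array as on its dimmest. It read 1060, 1321 and 1281 on the treatment arrays, 45.4, 50.8 and 905 on the model arrays, and 1570, 2613 and 187 on the control arrays. The treatment arrays lay together and above all 3 model arrays, whereas the model and control groups each held both high and low arrays. On the log2 scale the group means were 10.27 ± 0.17 in treatment, 7.28 ± 2.22 in model and 9.89 ± 1.96 in control (SD, n = 3 each). Highest over lowest array was 1.25 within treatment, 19.9 within model and 14 within control.

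The treatment to model difference of S100g was 2.98 on the log2 scale (SE 1.19, 95% interval 0.26 to 5.70), a fitted 7.9-fold, and it did not pass (limma, unadjusted p = 0.0351, adjusted p = 0.323). It did not pass without control 43 either (adjusted p = 0.164). Treatment and model did not overlap for 3 of the 9 genes (S100g, S100a1 and S100a10), against 28% of all genes. Model against control was -2.60 (SE 1.19, adjusted p = 0.413) with all arrays and -3.71 (SE 1.05, adjusted p = 0.0578) without control 43, when the model arrays lay below both remaining controls. Treatment against control was 0.38 (SE 1.19, adjusted p = 0.896) with all arrays and -0.73 (SE 1.05, adjusted p = 0.705) without control 43, so its direction depended on that array. A gap of the size seen between treatment and model rested on model arrays 21 and 22, since model 23, at 905, lay near the lowest treatment array at 1060. Leaving out model 23 moved the difference to 4.26, and leaving out model 21 moved it to 2.31.

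Calcium-handling genes that could accompany S100g were read from a list of 14 channels, pumps, exchangers, other calbindins and hormone receptors, of which 8 were tested. With all arrays none passed in any comparison (limma). At an unadjusted p under 0.05 there were 1 in treatment against control, 1 in model against control and 3 in treatment against model (17.4%, 12.4% and 14.7% of all genes). Their median log2 fold change was 0.04 in treatment against control, -0.08 in model against control and -0.05 in treatment against model (all genes -0.04, 0.02 and -0.05). Trpv6, the epithelial calcium entry channel, read 165, 135 and 158 in treatment, 251, 323 and 161 in model and 204, 127 and 77.3 in control, so it was at its brightest on model arrays 21 and 22, where S100g was dimmest. The plasma membrane pump Atp2b1 read 224, 251 and 234 in treatment and 369, 332 and 306 in model (272, 316 and 344 in control), without overlap between treatment and the other groups, at -0.47 against model (SE 0.11, adjusted p = 0.286) and -0.37 against control (adjusted p = 0.173). Without control 43, the exchanger Slc8a1 was higher in model than control (0.80, adjusted p = 0.0176), where 5.7% of all genes were higher. It read 394, 341 and 337 in model and 165, 236 and 429 in control, so the control left out lay above every model array. The channel Trpv5, also without control 43, was lower both in treatment (-0.47, adjusted p = 0.0377) and in model (-0.69, adjusted p = 0.00927). There 5.08% and 6.92% of all genes were lower. Trpv5 read 35.1, 46.2 and 41.4 in treatment, 32.4, 33.3 and 31.9 in model and 68.2, 57.0 and 29.3 in control. The control left out thus lay below every treatment and model array. Calb1, the larger calbindin, and the vitamin D receptor Vdr were under the filter on all arrays (4.35 to 8.75 and 5.38 to 7.89).

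S100a11 and S100a10 are annexin adaptors: S100a10 holds annexin A2 in a complex at the plasma membrane, and S100a11 binds annexin A1. S100a11 read 2256, 2843 and 2411 in treatment, 1519, 1788 and 2317 in model and 3201, 2947 and 942 in control. Controls 41 and 42 lay above all 6 induced arrays and control 43 below all of them. S100a10 had the same layout, with 2130, 2471 and 2302 in treatment, 1992, 2114 and 1884 in model and 2730, 2743 and 1461 in control. Treatment lay above model without overlap, by 0.20 on the log2 scale (SE 0.22, adjusted p = 0.671).

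With all arrays S100a11 differed by -0.17 in model against control (SE 0.42, adjusted p = 0.870) and by 0.26 in treatment against control (SE 0.42, adjusted p = 0.784), and S100a10 by -0.15 and 0.05 (SE 0.22 each, adjusted p = 0.765 and 0.932). Without control 43, S100a11 fell by 0.73 in model against control (SE 0.18, adjusted p = 0.0386), a 1.66-fold lower fitted level, and S100a10 fell by 0.45 (SE 0.10, adjusted p = 0.0252). In treatment against control the values without control 43 were -0.30 for S100a11 (adjusted p = 0.345) and -0.25 for S100a10 (adjusted p = 0.160), which did not pass. The model calls were kept in 9 of 10 other settings for each gene, but when a further array was left out S100a10 passed in 4 of 8 fits and S100a11 in 2 of 8. RefSeq lists 5 pseudogenes and 2 coding copies like S100a11 and 1 pseudogene of S100a10, and whether their transcripts reach these probe sets was not tested.

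The annexins that these proteins hold were laid out in a like way. Anxa2, the partner of S100a10, read 1075, 1657 and 1137 in treatment, 724, 859 and 1109 in model and 2036, 1851 and 680 in control, so here too control 43 was lowest and the other controls highest. Anxa1, the partner of S100a11, read 1722, 2561 and 1798 in treatment, 1173, 1686 and 1538 in model and 2539, 2576 and 899 in control. Of 12 tested genes on the list of annexins, plasminogen activators and other S100a10 partners, none passed with all arrays in any comparison. At an unadjusted p under 0.05 (limma) there were 5 in treatment against control, 4 in model against control and 2 in treatment against model (17.4%, 12.4% and 14.7% of all genes). Without control 43, 6 fell in model against control (Anxa1, Anxa2, Anxa3, Anxa4, Anxa5 and Anxa7, none rose; 6.92% of all genes were lower) and 2 in treatment against control (Anxa3 and Anxa5; 5.08% of all genes). Anxa2 differed by -1.12 in model (adjusted p = 0.0214) and by -0.61 in treatment (adjusted p = 0.149). The list's median in model against control was -0.27 with all arrays and -0.48 without control 43, where the median of all genes was 0.02 and 0.03. In treatment against control it was 0.06 and -0.24 (all genes -0.04 and -0.01). In treatment against model it was 0.12 (all genes -0.05). Kcnk3 had the list's smallest p in that comparison, at 41.3 to 48.8 in treatment, 30.5 to 36.0 in model and 32.1 to 34.4 in control.

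S100a6, or calcyclin, which binds the ubiquitin ligase adaptor Cacybp and is made by many epithelial and stromal cells, gave the call that held most widely once control 43 was set aside. It read 1340, 1492 and 1403 in treatment, 1614, 1342 and 1319 in model and 2427, 2278 and 579 in control. The 6 induced arrays formed 1 narrow band, with controls 41 and 42 above it and control 43 below it. With all arrays the differences were -0.07 in treatment against control (SE 0.47, adjusted p = 0.956) and -0.06 in model against control (SE 0.47, adjusted p = 0.962), and leaving out control 41 in place of control 43 turned them to 0.29 and 0.30.

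Without control 43, S100a6 fell by 0.73 in treatment (SE 0.11, 95% interval -0.99 to -0.47, adjusted p = 0.0110) and by 0.72 in model (SE 0.11, 95% interval -0.98 to -0.46, adjusted p = 0.0109), about 1.66-fold and 1.65-fold. These calls were kept in 10 of 10 other settings each, and when a further array was left out in 6 of 8 fits for treatment and 7 of 8 for model. Treatment and model differed by -0.01 (SE 0.10, 95% interval -0.24 to 0.22, without control 43). The 6 induced arrays lay between control 43 and the other controls for 3 members (S100a6, S100a10 and S100a11) and for 4.56% of all genes. Cacybp differed by -0.36 in treatment (adjusted p = 0.166) and -0.45 in model (adjusted p = 0.0713) without control 43, and did not pass.

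S100a4, also called metastasin, which binds non-muscle myosin and is associated with motile fibroblasts and leukocytes, was low on all 3 treatment arrays. It read 123, 120 and 138 in treatment, 111, 298 and 118 in model and 374, 314 and 138 in control. Its high arrays were therefore controls 41 and 42 and model 22, and the brightest treatment array and control 43 were level at 138. The difference was -0.92 in treatment against control (SE 0.42, adjusted p = 0.299) and -0.63 in model against control (SE 0.42, adjusted p = 0.515). Without control 43 it was -1.33 (SE 0.36, adjusted p = 0.0687) and -1.04 (SE 0.36, adjusted p = 0.0934), still short of the threshold. Treatment against model was -0.29 (SE 0.42, adjusted p = 0.741), and it turned to 0.13 without model 22.

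The start-site sequences of S100a4, S100a6 and S100a11 are shown because these genes share the pattern of high controls 41 and 42 yet differ in their start regions. RefSeq promoter sequence (build GRCr8) was found for 5 of the 9 members, and for each of the following the 250 bases before the start that the RefSeq promoter table uses are written 5′ to 3′ on the gene's own strand. All 3 lie on the + strand at chr2:178388279-178388528 (S100a4), chr2:178398287-178398536 (S100a6) and chr2:181874882-181875131 (S100a11). Capitals mark a TATAAA box and a GGTCA core of oestrogen response elements in S100a4, and GC boxes (GGGCGG) in the other two, overlapping in S100a11. For S100a4 and S100a11 that start is the first base of the annotated gene, whereas for S100a6 it lies 348 bases inside the gene, which begins at 178398189, so the S100a6 window is not upstream of the whole gene.
S100a4: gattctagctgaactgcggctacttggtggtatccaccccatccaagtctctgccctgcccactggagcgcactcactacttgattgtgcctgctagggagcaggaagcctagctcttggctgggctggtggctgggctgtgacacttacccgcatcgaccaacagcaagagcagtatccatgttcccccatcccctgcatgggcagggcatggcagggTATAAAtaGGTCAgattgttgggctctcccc
S100a6: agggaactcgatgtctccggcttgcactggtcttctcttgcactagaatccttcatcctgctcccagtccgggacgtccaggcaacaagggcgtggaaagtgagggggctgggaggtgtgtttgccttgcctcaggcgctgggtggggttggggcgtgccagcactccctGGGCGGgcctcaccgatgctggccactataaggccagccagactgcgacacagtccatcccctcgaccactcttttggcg
S100a11: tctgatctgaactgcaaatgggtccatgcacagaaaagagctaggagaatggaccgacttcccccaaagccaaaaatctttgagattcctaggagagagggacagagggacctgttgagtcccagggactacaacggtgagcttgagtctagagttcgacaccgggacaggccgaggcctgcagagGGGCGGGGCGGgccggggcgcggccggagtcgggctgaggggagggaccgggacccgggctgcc
The letters were searched on both strands. S100a4 held TATAAA from position -31 and GGTCA from position -23, counted from the start, motifs that 12.9% and 35.4% of 33469 promoter windows of the same length held. GGGCGG was in 30.5% of windows and began at position -80 in S100a6 and at -64 and -59 in S100a11. The full palindromic oestrogen response element, in 0.0239% of windows, the progesterone response element (0.012%) and the AP-1 site TGANTCA (6.34%) were in none of the 5 members' windows. GC content was 57.6% for S100a4, 62.4% for S100a6 and 62.0% for S100a11, against a median of 51.2% over all windows. In the same build 7 of the 9 genes lie on chromosome 2, S100b on chromosome 20 and S100g on chromosome X.

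**Figure D2:**
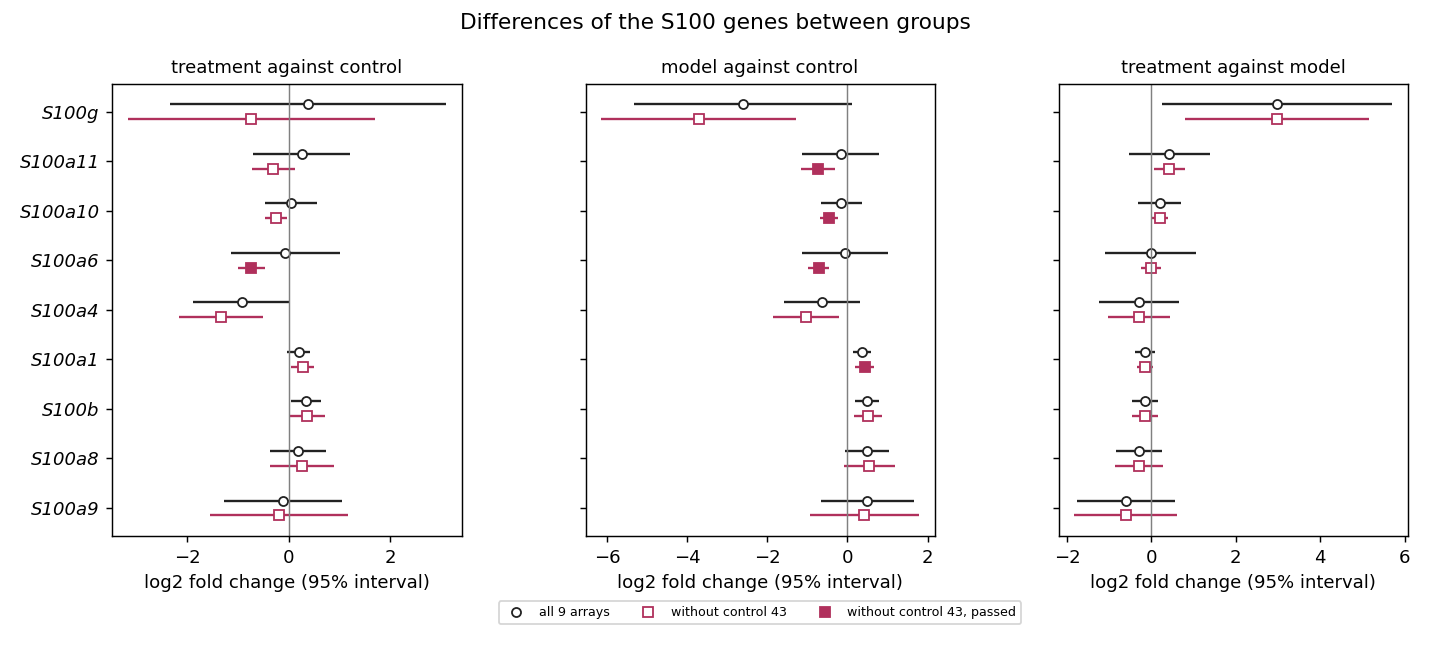
Log2 fold change of each S100 gene (x axis; bars are 95% intervals of the limma fit) in treatment against control, model against control and treatment against model, with all 9 arrays (circles) and without control 43 (squares, filled where the gene passed). Filled squares are S100a6 in both comparisons with control and S100a1, S100a10 and S100a11 in model against control.

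S100a1, a muscle member known from heart for binding the calcium release channel and the sarcoplasmic reticulum pump, ran the other way. It read 60.6, 54.3 and 59.5 in treatment, 66.7, 64.1 and 67.9 in model and 39.5, 51.3 and 54.8 in control, so the model arrays lay above every other array. Model against control was 0.36 with all arrays (SE 0.10, unadjusted p = 0.00664, adjusted p = 0.266) and 0.43 without control 43 (SE 0.10, adjusted p = 0.0320), a fitted 1.35-fold. The call without control 43 was kept in 9 of 10 other settings and in 2 of 8 fits that left out a further array. Treatment against control was 0.21 (SE 0.10, adjusted p = 0.324) and 0.28 without control 43 (adjusted p = 0.137), and treatment against model was -0.15 without overlap (SE 0.10, adjusted p = 0.483). The 13 smooth muscle markers all had a positive difference in both comparisons with control, with medians of 0.39 in treatment and 0.40 in model. None of them passed with all arrays. At an unadjusted p under 0.05 (limma) there were 4 in treatment and 5 in model (17.4% and 12.4% of all genes). Without control 43, Smtn passed in treatment (0.92, adjusted p = 0.0314), where 1.49% of all genes were higher. Smtn and Lmod1 passed in model (1.11 and 1.08, adjusted p = 0.0146 and 0.0171), where 5.7% of all genes were higher. Their summed intensity was 26700 to 32349 in treatment, 27703 to 32695 in model and 17820 to 28296 in control, and its part in the level of S100a1 was not tested.

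S100b, the glial member, made by Schwann cells and adipocytes in peripheral tissue, was dim throughout. It read 11.5, 13.3 and 22.0 in treatment, 21.6, 21.1 and 13.8 in model and 8.18, 8.41 and 9.29 in control, so all 6 induced arrays lay above all 3 controls. On 6 of the 9 arrays, all controls included, it was under the array's 40th percentile (15.16 to 16.17), where a level above background was not shown. S100b thus entered the test through induced arrays alone, which favours a call as higher than control and a lack of overlap with it. The difference was 0.35 in treatment (SE 0.13, unadjusted p = 0.0283, adjusted p = 0.242) and 0.49 in model (SE 0.13, unadjusted p = 0.00505, adjusted p = 0.255). Without control 43 it was 0.37 (adjusted p = 0.188) and 0.51 (adjusted p = 0.0646). The groups did not overlap for S100b and S100a4 in treatment against control (2 of 9, against 23.3% of all genes) and for S100a1 and S100b in model against control (2 of 9, against 14.5%).

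Markers of the cells that carry S100b were set beside it. Of 16 Schwann cell markers 7 were tested, and their summed intensity was 661 to 789 in treatment, 785 to 858 in model and 655 to 822 in control. Pmp22 carried most of that sum, at 473 to 623 in treatment, 634 to 705 in model and 379 to 667 in control. None passed with all arrays. At an unadjusted p under 0.05 (limma) there were 2 in treatment against control and 1 in model against control (17.4% and 12.4% of all genes). Without control 43 only Ngfr, a neurotrophin receptor, passed. It was lower in treatment (-1.55, adjusted p = 0.00605) and in model (-1.88, adjusted p = 0.00336). There 5.08% and 6.92% of all genes were lower. The list's median against control was then 0.01 in treatment (4 of 7 positive) and -0.01 in model (3 of 7). With all arrays Sox10 had the list's smallest p in treatment against control. It read 17.2 to 17.8 in treatment and at most 15.3 elsewhere, and reached the filter on treatment arrays alone. Of 11 adipocyte markers 6 were tested, with summed intensities of 472 to 517 in treatment, 748 to 920 in model and 597 to 663 in control. The model arrays were thus the highest for this sum, without overlap, but Lpl carried much of it: without Lpl the sum was 273 to 399 in treatment, 356 to 437 in model and 191 to 622 in control. Without control 43, Cfd (0.83, adjusted p = 0.0380), Plin4 (0.74, adjusted p = 0.0272) and Lpl (2.30, adjusted p = 0.0169) passed as higher in model than control (5.7% of all genes). Adipoq, the adipocyte hormone adiponectin, went the other way, at 23.5 to 192 in treatment, 107, 48.5 and 163 in model and 454, 378 and 15.3 in control, and without control 43 it differed by -2.33 in treatment and -1.93 in model (adjusted p = 0.0810 and 0.0939). The part of either cell type in the level of S100b was not tested. In bulk tissue fewer cells of a type and less RNA per cell cannot be told apart.

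S100a8 and S100a9 together form calprotectin, a major cytosolic protein of neutrophils that is released at sites of inflammation. S100a9 read 21.5, 17.5 and 28.6 in treatment, 7.26, 99.9 and 56.1 in model and 39.5, 17.7 and 21.3 in control. S100a8 read 16.9, 13.5 and 17.2 in treatment, 11.1, 42.5 and 21.7 in model and 12.8, 8.65 and 14.8 in control. Model 22 was the highest of the 9 arrays for both and model 23 the next, while model 21 was the lowest for S100a9, so the model group held both extremes. Model 22 was also the highest array for 12.8% of all genes.

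S100a9 differed by -0.11 in treatment against control (SE 0.51, adjusted p = 0.936), 0.49 in model against control (SE 0.51, adjusted p = 0.669) and -0.60 in treatment against model (SE 0.51, adjusted p = 0.574). The same differences for S100a8 were 0.19, 0.48 and -0.30 (SE 0.24 each, adjusted p = 0.722, 0.432 and 0.559). Without control 43, S100a9 differed from control by -0.18 in treatment and 0.42 in model (adjusted p = 0.878 and 0.665) and S100a8 by 0.26 and 0.55 (adjusted p = 0.594 and 0.209). The value in model against control rested on model 22: without that array it was -0.01 for S100a9 and 0.19 for S100a8. Of the 26 neutrophil and myeloid markers, 7 were tested. Their summed intensity was 984, 694 and 1111 in treatment, 757, 2678 and 1587 in model and 3017, 2458 and 1036 in control, so model 22 was again the highest of its group, but controls 41 and 42 were near or above it. None of the 7 passed with all arrays. At an unadjusted p under 0.05 (limma) there were 1 in treatment against control, 0 in model against control and 1 in treatment against model (17.4%, 12.4% and 14.7% of all genes). The median of the 7 in treatment against control was -0.94, with 7 of 7 negative. Without control 43, Cyba, a subunit of the phagocyte oxidase, was lower in treatment (-1.64, adjusted p = 0.00975) and in model (-1.31, adjusted p = 0.0174), and its partner Ncf4 was lower in model (-0.89, adjusted p = 0.0455). The defining neutrophil genes Cxcr1, Cxcr2, Itgam, Ncf1, Camp, Np4, Mmp8 and Mmp9 were under the filter on every array. Csf3r, the receptor of the granulocyte growth factor, reached 23.4 on model 22 and was at most 15.6 elsewhere. Fcnb and Il1r2, which like Csf3r reached the filter on 2 arrays and were not tested, were laid out differently. Fcnb read 23.6 and 27.5 on controls 41 and 42 and 10.5 on model 22. Il1r2 read 22.9 on control 41 and 21.6 on model 22. The part of these cells in the levels of S100a8 and S100a9 was not tested.

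**Figure D3:**
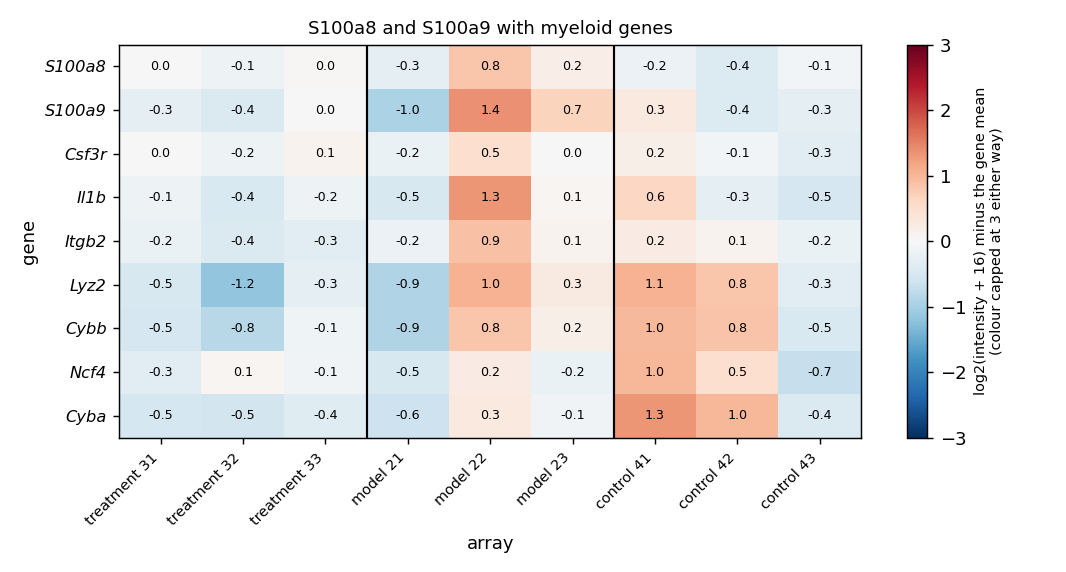
S100a8 and S100a9 with 7 myeloid genes (rows) on each array (columns, ordered treatment, model, control), as log2(intensity + 16) minus the gene's mean over the 9 arrays; Csf3r is under the filter on most arrays. Model 22 is above the gene's mean in every row, whereas controls 41 and 42 are high for Cyba, Ncf4, Cybb and Lyz2 and not for S100a8. The tested marker Fcgr3a is not drawn, and it read 145 on control 41, its highest array, and 82.9 on model 22.

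Receptors and signalling partners of released S100 proteins were read from a list of 9 genes, 8 of them tested. None passed with all arrays. At an unadjusted p under 0.05 (limma) there were 3 in treatment against control, 1 in model against control and 1 in treatment against model (17.4%, 12.4% and 14.7% of all genes). Ly96, the co-receptor that lets Tlr4 respond, read 141, 218 and 194 in treatment, 80.3, 157 and 205 in model and 815, 743 and 98.3 in control. Control 43 was again with the induced arrays and not with the other controls. Without control 43, Ly96 fell by 2.01 in treatment (adjusted p = 0.0133) and by 2.36 in model (adjusted p = 0.00786), and Tlr4, the endotoxin receptor that S100a8 and S100a9 can engage, fell by 1.14 and 0.77 (adjusted p = 0.0118 and 0.0328). Myd88, the adaptor below Tlr4, fell by 0.34 in model (adjusted p = 0.0427). That makes 2 of 8 lower in treatment and 3 of 8 in model, beside 5.08% and 6.92% of all genes. Ager, the other receptor named for S100 proteins, read 35.2 to 42.4 in treatment, 31.6 to 39.8 in model and 37.8 to 40.3 in control.

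Inside the cell, 16 of 20 listed S100 targets were tested. With all arrays 1 passed, in treatment against control, where 0.51% of all genes did. Tgm1, a transglutaminase that crosslinks S100a10 and S100a11 in keratinocytes, was higher in treatment than control by 0.76 (SE 0.10, limma adjusted p = 0.0311). It read 20.5, 25.6 and 29.9 in treatment, 15.3, 13.3 and 17.6 in model and 6.45, 7.41 and 11 in control, in 3 separate bands. It reached the filter on 4 arrays only, 3 of them treatment arrays, and all its control values lay under the thresholds of their arrays (15.35 to 15.56). Tgm1 thus entered the test through the group in which it was high, which favours a call as higher. It passed in 3 of 9 fits that left out an array. With treatment 31, 32 or 33, model 22, control 41 or control 42 left out the adjusted p was 0.0521 to 0.118. Without control 43, the actin capping subunit Capza1 was lower in treatment (-0.53, adjusted p = 0.0300) and in model (-0.56, adjusted p = 0.0198), and Tgm2 was lower in model (-1.54, adjusted p = 0.0178). Tgm1 also passed there as higher, in treatment (0.84, adjusted p = 0.00492) and in model (0.45, adjusted p = 0.0309), where 1.49% and 5.7% of all genes were higher. The non-muscle myosin genes bound by S100a4 did not pass. Myh9 differed by -0.34 in treatment and -0.09 in model, and Myh10 by -0.05 and 0.48 (all arrays; adjusted p = 0.222, 0.739, 0.924 and 0.395).

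The sum of epithelial markers had a layout like that of several members, though not every marker did. The 17 tested epithelial markers summed to 4850, 7394 and 7177 in treatment, 4180, 4430 and 5696 in model and 21883, 16094 and 5298 in control, so controls 41 and 42 were far above the rest and control 43 was among the induced arrays. None passed with all arrays. At an unadjusted p under 0.05 (limma) there were 5 in treatment and 6 in model against control (17.4% and 12.4% of all genes). Without control 43, 6 of 17 were lower in treatment and 14 of 17 in model than in control (5.08% and 6.92% of all genes). Krt8, Krt19 and Prom1 were the brightest of these markers on controls 41 and 42, at 1822 to 4150, but not on control 43, at 162 to 825. Epcam, an epithelial adhesion molecule, read 913, 1177 and 1276 in treatment, 1006, 860 and 846 in model and 1632, 1423 and 1310 in control, with control 43 above every induced array. The tight junction genes Cldn3 (1047) and Cldn4 (134) were at their highest on control 43. Krt18, an epithelial keratin, was 1 of the 3 genes most like S100a11 over the 9 arrays (r = 0.96 on the log2 scale, rho = 0.98, and r = 0.92 without control 43 and model 21). Ass1 (r = 0.97, rho = 1.0) and Serpinb1a (r = 0.96, rho = 0.98), which are not on the epithelial list, ranked above it. The part of the epithelium in the S100 differences was not tested. Krt8, another epithelial keratin, read 900, 1596 and 1252 in treatment, 209, 549 and 1074 in model and 4150, 3006 and 234 in control, so model 21 was its lowest array, as for S100g, and model 22 was not level with it as it was for S100g.

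**Figure D4:**
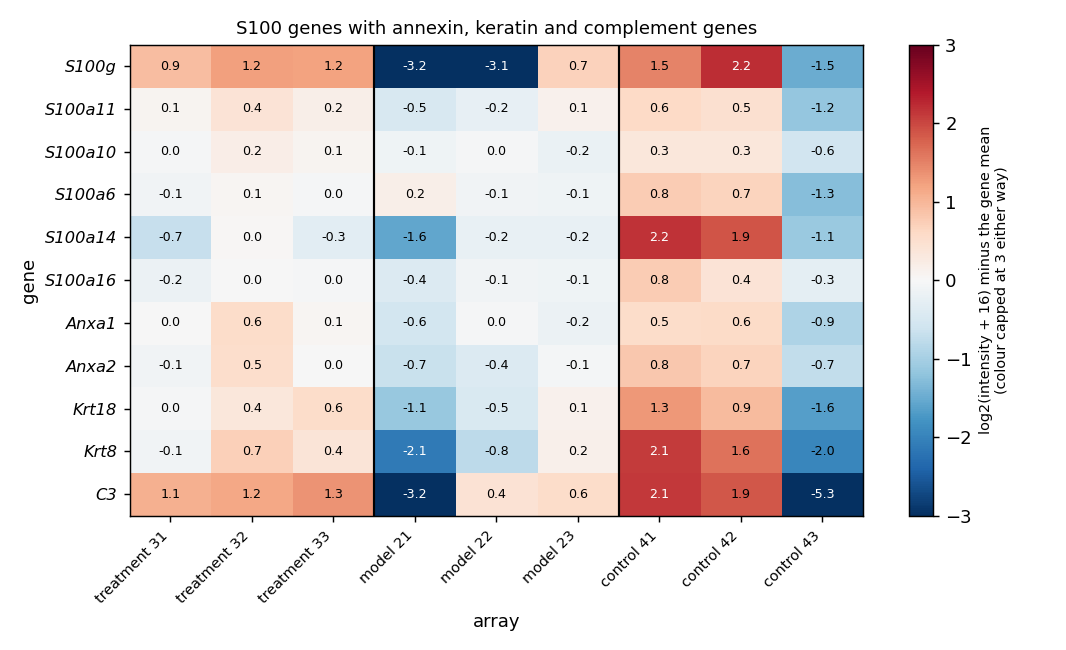
S100 genes with annexin, keratin and complement genes (rows) on each array (columns, ordered treatment, model, control), as log2(intensity + 16) minus the gene's mean over the 9 arrays, with colour capped at 3. Controls 41 and 42 are above the gene's mean in every row, control 43 is below it in every row, and model 21 and 22 are lowest for S100g. The rows are a selection. Cldn3 and Cldn4, highest on control 43 (1047 and 134), are not drawn. Epcam, Anxa3 and Anxa4, on which control 43 (1310, 204 and 616) was above every induced array, are not drawn either.

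Likeness was also measured for each member against the 5470 tested genes brighter than the median, as Pearson's r of log2 values over the 9 arrays. All points share the same 9 hybridisations, and the highest r values were picked from many. The genes most like S100g were Perp, a desmosome-linked membrane protein, Slc39a11, a zinc transporter, and Spryd7, each at r = 0.95. Perp read 226, 304 and 320 in treatment, 77.1, 99.4 and 237 in model and 487, 357 and 122 in control. It was thus low on the arrays where S100g was low. The 3 genes most like S100a10 were Cyrib (r = 0.95), Anxa1 (0.95, and 0.88 without controls 42 and 43) and Ankh (0.94). Those most like S100a6 were Traf7 (0.92), S100a10 (0.92, and 0.72 without controls 41 and 43) and Chtf8 (0.9). For S100a1 they were Selenow (r = 0.98), Tcf23 (0.97) and the smooth muscle gene Lmod1 (0.96). For S100a4 they were Derl1 (0.96), Irgm2 (0.95) and Dad1 (0.95), and for S100b Galt (0.95), Lrrc8d (0.92) and Dhrs7 (0.92). For S100a8 they were Utp4 (0.95), Serping1 (0.9) and Pcna (0.9). The 3 most like S100a9, each at r = 0.94, were Get3, Cul3 and C1qc, a complement gene of macrophages (C1qc 0.72 without model arrays 22 and 23). S100a8 and S100a9 correlated with each other at r = 0.87 (rho = 0.77).

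Of the other family members, S100a14 and S100a16 were also highest on controls 41 and 42, but their lowest array was model 21 and control 43 lay next to it, within the induced range. S100a14, an epithelial member, read 22.8, 48.1 and 34.2 in treatment, 5.34, 37.7 and 38.0 in model and 263, 217 and 13.1 in control on its brighter probe set, and the second probe set read 25.7 to 42.0, 10.8 to 35.5 and 12.6 to 235. S100a16 read 324, 363 and 357 in treatment, 273, 341 and 332 in model and 633, 490 and 298 in control. With all arrays neither passed. Without control 43, S100a14 fell by 2.35 in treatment (adjusted p = 0.0161) and by 2.69 in model (adjusted p = 0.00979), and S100a16 fell by 0.66 (adjusted p = 0.0347) and 0.80 (adjusted p = 0.0156). S100pbp, which encodes an S100P-binding protein and is not itself a family member, was higher in model than control by 0.55 (adjusted p = 0.0189), also without control 43. S100a3 and S100a13 passed in no comparison, and S100a5, S100a7l2 and S100vp were under the filter on all arrays.

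Spread between replicates differed among the groups. The treatment arrays had the smallest SD of the 3 groups for 6 of the 9 members (44% of all genes), and the model arrays the largest for 4 (S100g, S100a4, S100a8 and S100a9; 29% of all genes). Controls had the largest SD for the other 4 apart from S100b (S100a1, S100a6, S100a10 and S100a11; 51.9% of all genes). Control 43 was the lowest of the 9 arrays for 3 members, against 9.98% of all genes. The members' median log2 fold change was 0.19 in treatment against control, -0.06 in model against control and -0.15 in treatment against model with all arrays (all genes -0.04, 0.02 and -0.05), and -0.25, -0.45 and -0.15 without control 43 (all genes -0.01, 0.03 and -0.05). The comparisons against control share the control arrays, so their values are not independent of each other.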

How the data were processed

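Biotin-labelled total RNA of 9 uterine samples was measured on Affymetrix rat arrays. The values are intensities deposited by the authors, 1 per probe set and array on a linear scale; MAS5, a probe summary algorithm, is named per the submitters' processing notes, while neither its settings nor any scaling or detection calls are stated in the sources used here. The background level is therefore unknown, and the number of arrays limits the precision. Intensities ran from 1.87 to 7895.7, with array medians of 23.56 to 24.02.

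Of 31099 probe sets, 57 Affymetrix controls were left out. The platform annotation gave 1 symbol for 20826, several for 436 and none for 9780, and the symbol of 20758 of the 20826 probe sets was found in RefSeq. Values were taken as log2(intensity + 16). The filter (40th percentile of the array in at least 3 arrays) left 19326 probe sets, 14553 with 1 symbol, and the brightest on average was used for each of 10973 genes. A single model of the 9 arrays was fitted in R 4.3.3 by limma 3.58.1 (lmFit, eBayes with a variance trend, two-sided contrasts), with Benjamini-Hochberg adjustment over all genes of a comparison. The script was tested on simulated data. The labels gave groups but no batch. Plots used Python 3.11.15 and matplotlib 3.10.9.

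The members and gene lists were chosen with earlier results of these data known. Named were all members and other S100 genes, and up to 4 genes of each partner list with the smallest p in a comparison. The lists' genes that passed were also named, except the epithelial ones, which are given as counts. The 3 genes most like each member were named too. Perp, Ager, Cacybp, Myh9, Csf3r, Fcnb, Il1r2, Fcgr3a, Sox10, Pmp22, Calb1, Vdr, Anxa1, Krt8, Krt18, Epcam, Cldn3, Cldn4 and Adipoq were named by value after their values were seen. The alternatives tried were quantile normalization, median centring, adding 1 or 64 before log2, dropping the filter or raising it to the 60th percentile, fitting without the variance trend or robustly, the compared arrays alone, the mean of a gene's probe sets, and each array left out; all were repeated without control 43, a choice made after seeing the data.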

Additional observations from a re-analysis of the deposited data

How the results depend on the processing

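Every difference rests on 3 arrays a group, the background of the intensities is unknown, and without control 43 only 2 controls remain. Leaving out control 43 took the number of S100 genes that passed to 4 in model against control and 1 in treatment against control, and over the 9 left-out arrays these numbers were 0 to 4 and 0 to 1, with 0 in treatment against model. Without control 43, a fit to the compared arrays alone gave 1 in model against control (S100a6) and 2 in treatment against control (S100a4 and S100a6). Beside them 638 and 897 of 10973 genes passed. Leaving out a further array gave 0 to 4 in model against control (2 without treatment 31 or control 42, 1 without model 21, 0 without control 41) and 0 to 2 in treatment against control (0 without treatment 31 or control 41, 2 without model 22), which fits fewer arrays. Without control 43 and model 23, S100g passed in treatment against model, the 1 member call in that comparison under any setting. In that fit 95 of 10973 genes passed. It left out the model array on which S100g read 905 and kept those at 45.4 and 50.8.

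Of 27 member differences with all arrays, 26 kept their direction under every setting that left no array out, and S100a6 in treatment against model turned to 0.02 under quantile normalization. Over the left-out arrays 17 of 27 kept their direction. The others ranged in treatment against control from -0.73 to 1.12 (S100g), -0.73 to 0.29 (S100a6), -0.25 to 0.11 (S100a9), -0.25 to 0.20 (S100a10) and -0.30 to 0.57 (S100a11). In model against control they ranged from -0.72 to 0.30 (S100a6), -0.01 to 1.15 (S100a9) and -0.73 to 0.14 (S100a11), and in treatment against model from -0.52 to 0.13 (S100a4) and -0.06 to 0.08 (S100a6); the cause was not tested beyond naming the arrays. Over all genes the number that passed was 3 in model against control and 56 in treatment against control, 1384 and 720 without control 43, 129 and 114 without controls 41 and 43, and 1 in model against control with no filter or with the compared arrays alone. When single arrays were left out, the 56 became 0 (treatment 33), 2 (treatment 31), 11 (treatment 32), 13 (model 22), 95 (model 23), 4 (control 41) or 5 (control 42). The 3 became 0 when the array dropped was either of controls 41 and 42 or either of models 21 and 23, and 1 when it was model 22 or any treatment array, so the shares of all genes that stand beside the members' counts depend on single arrays. Quantile normalization moved the split in treatment against control to 27 higher and 28 lower, from 19 and 37 as deposited. A filter at the 60th percentile left 7 of the 9 members. Each member has 1 probe set, so the second-brightest probe set could not be tried. No paired analysis was possible because the labels share no replicate number between groups.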

Other observations

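Oestrogen-responsive genes of the uterus were read beside S100g, whose expression in this organ oestrogen controls. Of 13 tested genes none passed with all 9 arrays in any comparison, and their median log2 fold change was 0.06 in treatment against control, -0.01 in model against control and -0.08 in treatment against model. In treatment against control 7 were positive and 6 negative. Cp had the smallest p of the list there and in treatment against model. It read 108, 211 and 127 in treatment, 375, 869 and 344 in model and 362, 533 and 386 in control on its brightest probe set. On another probe set treatment (97 to 208) overlapped control (200 to 432). C3, a complement gene that oestrogen induces in rat uterine epithelium, read 2462, 2652 and 2999 in treatment, 116, 1581 and 1733 in model and 5116, 4301 and 13.2 in control. C3 and S100g were both low on model 21 and control 43, but on model 22, where S100g read 50.8, C3 read 1581. Lcn2, encoding a secreted lipocalin, read 715, 2152 and 1299 in treatment, 67.5, 1782 and 1261 in model and 888, 562 and 9.19 in control, and was likewise not low on model 22. Without control 43, the epithelial mucin gene Muc1 was lower in treatment (-1.44, limma adjusted p = 0.0268) and in model (-1.60, adjusted p = 0.0161) than in control, and Igf1 (1.07, adjusted p = 0.0342), Myc (0.72, adjusted p = 0.0388) and Vegfa (0.43, adjusted p = 0.0321) were higher in model than in control. Igf1 read 420, 218 and 276 in treatment, 730, 652 and 584 in model and 262, 348 and 1197 in control, so control 43 was its highest array while it was the lowest for C3.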
